A study of Mus musculus with 11 samples.

Results

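Expression of genes for tumor necrosis factor (TNF) and interleukin ligands, their receptors and the feedback inhibitor Socs3 was examined in gonadal white adipose tissue (WAT). The group was defined by name as 10 genes, Tnf, Tnfrsf1a, Tnfrsf1b, Il1b, Il1rn, Il1r1, Il18, Il6ra, Il10ra and Socs3. Of these, 9 were found among the 12787 genes of the table, and Il1b was not analysed here. RNA was sequenced from male C57Bl6/J mice fed a 60% high fat diet (HFD) for 20 weeks, with 1 library per mouse. The 5 control mice received the HFD alone, which the labels call Vehicle. The 6 treated mice received the same diet with 0.06% w/w iodomethylcholine (IMC), a small molecule that blocks the bacterial enzyme CutC, which makes trimethylamine from choline in the gut. The whole fat pad was used, so adipocytes, immune cells and stromal cells were measured together, and fewer cells of a type cannot be told apart from less RNA per cell.

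TNF is made as a membrane protein, mainly by macrophages, and signals through the receptors TNFR1 (Tnfrsf1a), found on most cells, and TNFR2 (Tnfrsf1b), found largely on immune and endothelial cells. Il1rn encodes the interleukin-1 receptor antagonist, which occupies the receptor Il1r1 without signaling, and IL-18 is a related cytokine that is cut to its active form by caspase-1. Il6ra and Il10ra encode the ligand-binding chains of the IL-6 and IL-10 receptors, which signal through JAK kinases and STAT3, and Socs3 is a STAT3 target whose protein restrains this signaling. In obese adipose tissue, macrophages accumulate and TNF is known to impair insulin action in adipocytes.

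The promoters of Tnf and Tnfrsf1b are shown because these genes kept their calls, described below, with any one mouse left out. The sequences are the 250 bases before the RefSeq start, on the gene's strand and in build GRCm38.p6, at chr17:35202008-35202257 for Tnf and chr4:145246871-145247120 for Tnfrsf1b, both on the minus strand and free of annotated exons. Capitals mark a TATA box (TATAAA) in Tnf and a STAT motif (TTCNNNGAA) in Tnfrsf1b.
Tnf: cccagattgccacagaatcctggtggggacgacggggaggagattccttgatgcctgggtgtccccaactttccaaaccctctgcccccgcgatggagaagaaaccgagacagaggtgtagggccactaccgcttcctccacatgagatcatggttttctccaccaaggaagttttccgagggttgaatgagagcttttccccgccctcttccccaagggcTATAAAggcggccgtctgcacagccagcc
Tnfrsf1b: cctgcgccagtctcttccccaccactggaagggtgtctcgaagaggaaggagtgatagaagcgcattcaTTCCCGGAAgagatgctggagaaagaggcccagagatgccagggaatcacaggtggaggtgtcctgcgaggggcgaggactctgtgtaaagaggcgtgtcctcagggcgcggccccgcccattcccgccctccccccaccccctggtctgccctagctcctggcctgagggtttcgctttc
Windows were found for 8 of the 9 listed genes and were searched on both strands for the NF-kB consensus, the STAT motif, the AP-1 motif (TGANTCA) and TATAAA. The TATA box of Tnf lay 24 to 29 bases before the start, and TATAAA was found in 12.4% of all 32851 windows of this length. The STAT motif of Tnfrsf1b lay 173 to 181 bases before the start and matched both strands, since the pattern is its own reverse complement. This motif was found in 7.02% of all windows, the NF-kB consensus in 7.25% and the AP-1 motif in 6.75%. Windows of Tnfrsf1a and Socs3 also held a STAT motif, a window of Il1rn held an AP-1 motif, 1 of the windows of Il1r1 held the NF-kB consensus, and that of Il18 held TATAAA on the opposite strand. Each match is a match of letters and was not tested for binding.

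Of the 9 genes, 5 were lower and 0 higher in IMC-treated mice. These were Tnf, Tnfrsf1b, Il10ra, Socs3 and Il18. Values are log2 CPM, the counts of a gene relative to the scaled library size, and groups were compared with limma over all genes with Benjamini-Hochberg adjustment and a threshold of 0.05. By the same limma test, 40.9% of all genes differed between the groups, 21.0% being lower, and 2556 genes were higher. The median difference of the 9 genes was -0.33 on the log2 scale, and that of all genes was -0.03. Reads on all 12787 genes of the table numbered 22320022 to 25155366 per library, and the labels name no batch. The 9 genes were covered by between 61 reads, for Tnf, and 7482 reads, for Tnfrsf1b, in a mouse.

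Markers of other cells also moved with IMC. Of 10 macrophage markers, 8 were lower and 0 higher, and their summed level was 6796 to 9194 CPM in HFD control mice and 4001 to 6472 CPM in IMC-treated mice. All 7 mast cell markers were lower (507 to 1157 against 161 to 326 CPM), as were 3 of 5 progenitor and fibroblast markers (3761 to 4491 against 2821 to 3456 CPM). Of the dendritic cell markers, 2 of 4 listed were lower, Itgax and Xcr1, while Flt3 and Zbtb46 were not called. Their summed level (533 to 728 against 336 to 514 CPM) was mostly that of Itgax. Its mean was 9.31 log2 CPM in controls, where the other dendritic cell markers had means of 2.88 or less. Of the mesothelial markers, 1 of 4 listed was lower (196 to 274 against 92.3 to 221 CPM). The 7 adipocyte markers, Adipoq and Plin1 among them, were all higher (8947 to 12844 against 17735 to 21685 CPM), and were detected in every mouse. Both listed skeletal muscle markers of 7 and 1 of 5 endothelial markers were also higher (12.2 to 17.4 against 29.8 to 55.7 CPM and 317 to 441 against 385 to 506 CPM). Summed levels overlapped for the 2 listed of 4 NK cell markers (2.0 to 4.01 against 2.13 to 5.37 CPM) and the 2 listed of 6 neutrophil markers (20.9 to 27.0 against 23.9 to 29.7 CPM), with 0 called. None of the 6 T cell markers, 5 B cell markers and 6 epididymis markers was listed. The part of these cells in the differences below was not tested.

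Tnf, which encodes the ligand, had log2 CPM of 2.69, 2.64, 2.80, 2.58 and 2.52 in the 5 HFD control mice. In the 6 IMC-treated mice its lowest, median and highest values were 1.43, 1.96 and 2.50. Every IMC-treated mouse was below every HFD control mouse, and Tnf was the only listed gene of the group without overlap, a pattern found for 23.1% of all genes. The highest IMC-treated mouse was number 4. Tnf fell from 2.64 ± 0.11 (SD, n = 5) to 1.95 ± 0.40 (SD, n = 6), a log2 fold change of -0.70 (SE 0.17, 95% confidence interval -1.06 to -0.33, adjusted p = 0.00564 by limma) or 0.617-fold. Tnf had the fewest reads of the group, and counting alone gives an SD of about 0.13 on the log2 scale at its mean of reads, above the SD seen among HFD control mice and below that among IMC-treated mice.

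Of the TNF receptors, Tnfrsf1b was lower and Tnfrsf1a was not called. Tnfrsf1b, which encodes TNFR2, had log2 CPM of 8.40, 8.15, 8.24, 8.21 and 7.95 in HFD control mice. Its lowest, median and highest values in IMC-treated mice were 7.41, 7.82 and 8.005. Only the lowest control mouse, number 5, lay within the range of the IMC-treated mice, and all 6 of these were below the control mean. Tnfrsf1b fell from 8.19 ± 0.16 (SD, n = 5) to 7.78 ± 0.23 (SD, n = 6), a log2 fold change of -0.41 (SE 0.11, 95% confidence interval -0.64 to -0.18, adjusted p = 0.00803 by limma). Tnfrsf1a, which encodes TNFR1, had log2 CPM of 7.94, 7.76, 7.73, 7.69 and 7.93 in HFD control mice and values from 7.79 to 8.07, with a median of 7.89, in IMC-treated mice. These ranges overlapped widely, and the difference of 0.09 (SE 0.06) did not pass the test (95% confidence interval -0.04 to 0.23, adjusted p = 0.265 by limma).

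**Figure D1:**
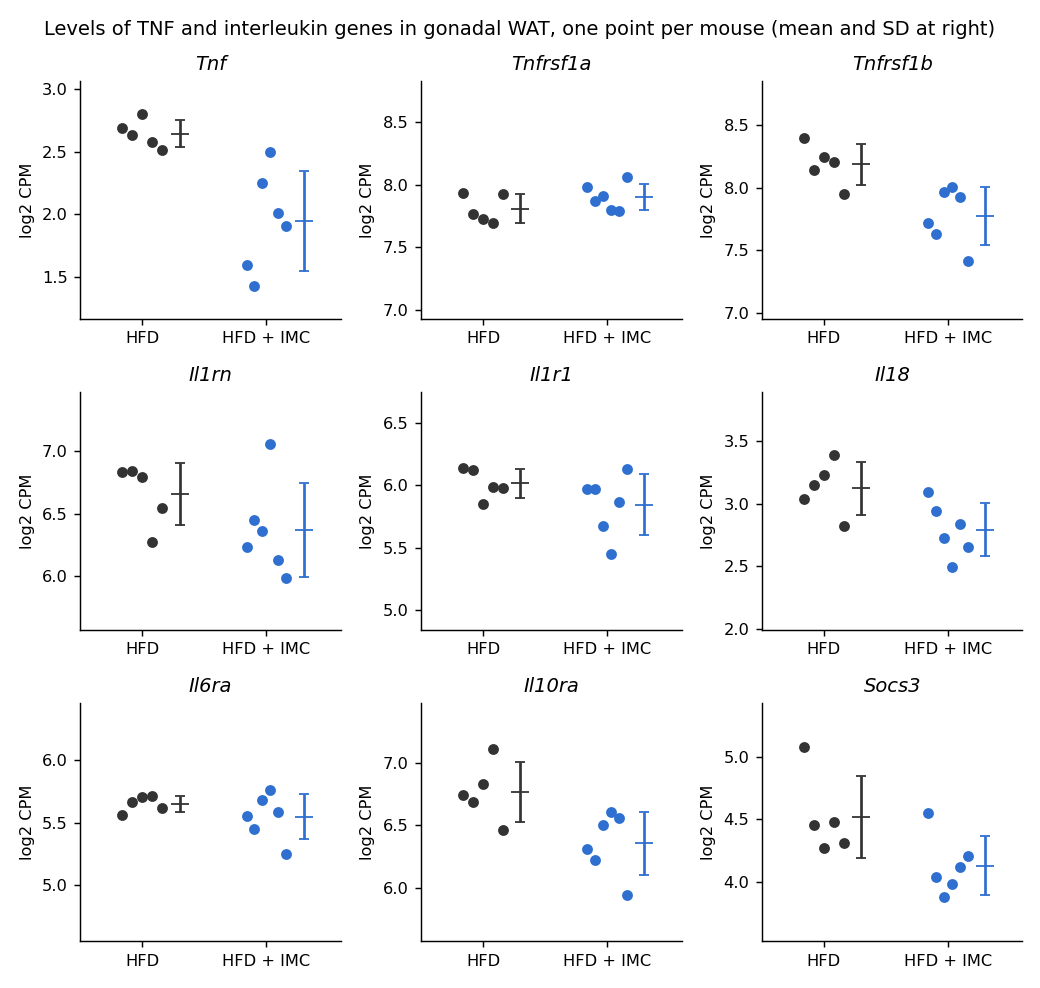
Log2 CPM of the 9 listed genes in each mouse, for 5 HFD control mice (black) and 6 IMC-treated mice (blue), with the mean and SD beside the points; every panel spans the same range on the y axis. The groups are apart for Tnf only, and IMC-treated mice lie lower on average in each panel except that of Tnfrsf1a.

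Within a mouse, the log2 ratio of Tnfrsf1b to Tnfrsf1a does not depend on the scaling of the library. It was 0.46, 0.38, 0.52, 0.52 and 0.02 in HFD control mice and ranged from -0.65 to 0.20 in IMC-treated mice. The mean was 0.38 ± 0.21 in controls (SD, n = 5) and -0.13 ± 0.32 with IMC (SD, n = 6), a difference of -0.51 (two-sided exact permutation test over 462 splits, p = 0.0173). This was 1 of 4 ratios tested, and after Benjamini-Hochberg adjustment over them the exact permutation p was 0.0693, which did not pass the threshold. Without control mouse 5, whose ratio was lowest in its group, the difference was -0.60 (adjusted p = 0.0381, exact permutation test), and without IMC-treated mouse 4 it was -0.57 (adjusted p = 0.0476, exact permutation test). In the 9 other runs that left out a mouse the ratio did not pass (adjusted p up to 0.152, exact permutation test).

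Of the IL-1 family members of the group, Il18 alone was called, and narrowly. Il18 had log2 CPM of 3.04, 3.15, 3.23, 3.39 and 2.82 in HFD control mice and a lowest, median and highest value of 2.50, 2.78 and 3.09 in IMC-treated mice. The ranges overlapped, with 3 control mice above all treated mice and 3 treated mice below all controls. The log2 fold change of Il18 was -0.33 (SE 0.12, 95% confidence interval -0.59 to -0.07, adjusted p = 0.0432 by limma), and the call was kept in 3 of the 11 fits that each left out a mouse, those without control mouse 5 or IMC-treated mouse 1 or 2. The interval of Il18 overlaps Bco2 and Tex12 on the opposite strand, and the strand setting of the count is not given in the sources used here, so reads may have been shared.
Il1rn, which encodes the antagonist, had log2 CPM of 6.83, 6.85, 6.79, 6.27 and 6.55 in HFD control mice. In 5 of the IMC-treated mice its level lay between 5.99 and 6.45, and mouse 4 had 7.06, above every control. The difference of -0.29 (SE 0.16) did not pass the test (95% confidence interval -0.64 to 0.07, adjusted p = 0.182 by limma), but without IMC-treated mouse 4 it was -0.43 (adjusted p = 0.0117 by limma). In the 10 other fits that left out a mouse Il1rn did not pass (adjusted p up to 0.322 by limma). Il1r1, which encodes the signaling receptor of IL-1, ranged from 5.85 to 6.14 log2 CPM in HFD control mice and from 5.45 to 6.13 in IMC-treated mice. Its difference of -0.17 (SE 0.10) did not pass either (95% confidence interval -0.40 to 0.05, adjusted p = 0.211 by limma). The log2 ratio of the decoy receptor gene Il1r2 to Il1r1 was -5.03 ± 0.24 in controls (SD, n = 5) and -5.37 ± 0.60 with IMC (SD, n = 6), a difference with p = 0.251 by the same two-sided exact permutation test (adjusted over 4 ratios 0.335). Without IMC-treated mouse 6 this difference was -0.13, and with log2 of CPM plus 2 it was -0.057.

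Among the receptors and the inhibitor linked to STAT3, Il10ra and Socs3 were lower, while Il6ra was not called. Il10ra had log2 CPM of 6.74, 6.68, 6.83, 7.11 and 6.46 in HFD control mice and a lowest, median and highest value of 5.94, 6.41 and 6.61 in IMC-treated mice. Control mouse 5 lay among the treated mice and the other 4 controls lay above all of them. The log2 fold change of Il10ra was -0.41 (SE 0.13, 95% confidence interval -0.68 to -0.13, adjusted p = 0.0212 by limma), and without control mouse 4, the highest, it was -0.32 (adjusted p = 0.0573 by limma). Il10rb, which encodes the partner chain of the IL-10 receptor, fell by 0.40 on the log2 scale (SE 0.09, adjusted p = 0.00249 by limma). The log2 ratio of Il10ra to Il10rb was -0.82 ± 0.30 in controls (SD, n = 5) and -0.83 ± 0.10 with IMC (SD, n = 6) (two-sided exact permutation test, p = 0.952, adjusted over 4 ratios 0.952).
Socs3 had log2 CPM of 5.08, 4.45, 4.27, 4.48 and 4.31 in HFD control mice, so that mouse 1 stood apart from the other controls. In IMC-treated mice the lowest, median and highest values were 3.88, 4.08 and 4.55, and 5 of the 6 lay below all controls. The log2 fold change of Socs3 was -0.39 (SE 0.15, 95% confidence interval -0.70 to -0.07, adjusted p = 0.0474 by limma). Without control mouse 1 it was -0.25 (adjusted p = 0.109 by limma), and the call was kept in 3 of the 11 fits that each left out a mouse, those without control mouse 3 or 5 or IMC-treated mouse 1. Il6ra ranged from 5.56 to 5.72 log2 CPM in HFD control mice and from 5.25 to 5.76 in IMC-treated mice, and its difference of -0.11 (SE 0.08) did not pass (95% confidence interval -0.27 to 0.06, adjusted p = 0.307 by limma). The log2 ratio of Il6ra to Il6st, the gene for the shared signaling chain gp130, was -2.67 ± 0.08 (SD, n = 5) against -2.85 ± 0.20 (SD, n = 6) (two-sided exact permutation test, p = 0.0866, adjusted over 4 ratios 0.173). Without IMC-treated mouse 4 the adjusted p of this ratio was 0.0317 by the same exact permutation test, with a difference of -0.24. In the 10 other runs that left out a mouse the ratio did not pass (adjusted p up to 0.317, exact permutation test). The intervals of Il6ra, Il10ra and Il1r1 overlap small annotated genes, Gm42809 for Il6ra, Gm20612 and Mir7086 for Il10ra and Gm38070 for Il1r1.

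To compare levels between genes, the CPM of each was divided by the length of its exons in kb. In HFD control mice, Tnfrsf1a had 79.9 to 94.5 CPM per kb and Tnfrsf1b 64.8 to 88.2, and these ranges overlapped. In IMC-treated mice Tnfrsf1a had 85.4 to 103 CPM per kb and Tnfrsf1b 44.6 to 67.3, with no overlap between the receptors. Il10ra followed with 25.2 to 39.5 CPM per kb in HFD control mice, and Il1rn with 14.0 to 20.8, again without overlap. The levels of Il1r1 (9.07 to 11.1 CPM per kb), Il18 (6.87 to 10.1) and Socs3 (6.67 to 11.7) in HFD control mice overlapped one another. Il6ra had 5.47 to 6.08 CPM per kb and Tnf, with 3.49 to 4.26, was the lowest of the group in HFD control mice. In IMC-treated mice Tnf had 1.64 to 3.45 CPM per kb, below the lowest value of every other listed gene. Exon lengths were taken from another annotation than that of the counts, so the order rests on these lengths.

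**Figure D2:**
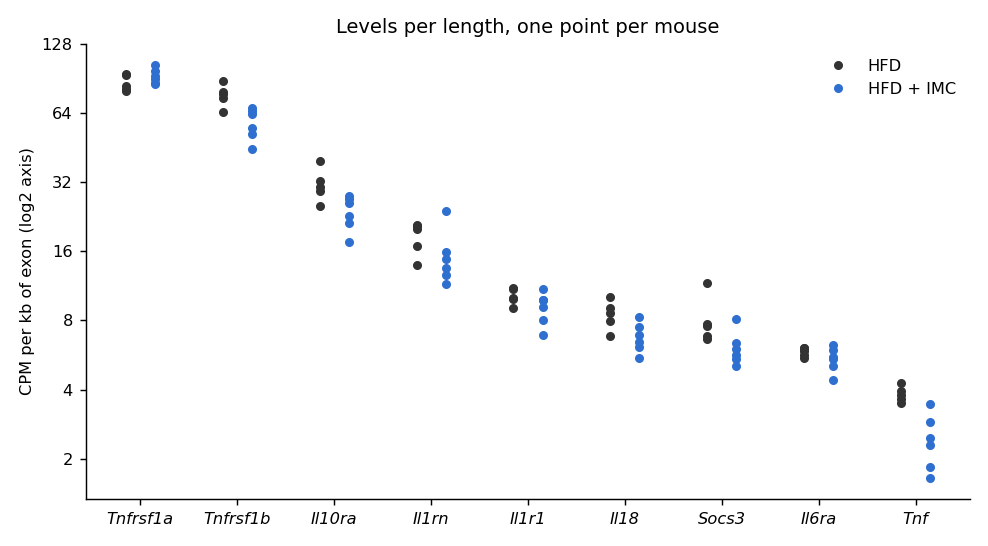
CPM per kb of exon (log2 axis) of the 9 listed genes, one point per mouse, HFD control mice in black and IMC-treated mice in blue. The receptors of TNF have the highest levels and Tnf the lowest, and the 2 receptors overlap in HFD control mice but not in IMC-treated mice.

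Because macrophage markers were lower, each gene was also expressed relative to the mean log2 CPM of the 10 macrophage markers in the same mouse. This mean was 8.23 ± 0.12 in controls (SD, n = 5), ranging from 8.05 to 8.38, and 7.73 ± 0.19 with IMC (SD, n = 6), ranging from 7.49 to 7.93. On this relative scale, limma called 75.1% of all genes, 74.3% as higher and 0.727% as lower with IMC, after Benjamini-Hochberg adjustment. Of the 5 genes that were lower in log2 CPM, 0 were lower or higher on the relative scale, and 0 of them had an unadjusted p under 0.05 by limma. The relative difference was -0.20 for Tnf (SE 0.16, 95% confidence interval -0.54 to 0.14, adjusted p = 0.261 by limma), and with log2 of CPM plus 2 its direction reversed, to 0.00083. It was 0.08 for Tnfrsf1b (SE 0.09, 95% confidence interval -0.11 to 0.27) and 0.09 for Il10ra (SE 0.10, 95% confidence interval -0.12 to 0.29). Intervals were wider for Socs3, from -0.26 to 0.48, and for Il18, from -0.19 to 0.51. The SD of Tnfrsf1b among IMC-treated mice was 0.23 in log2 CPM and 0.06 relative to the markers, and among HFD control mice it was 0.16 and 0.15. Among IMC-treated mice the SD was also smaller on the relative scale for Tnf, Il1rn, Il6ra and Il10ra. It was larger for Socs3 (0.24 in log2 CPM and 0.37 relative), Il18 (0.21 and 0.34), Tnfrsf1a (0.11 and 0.28) and Il1r1 (0.24 and 0.42).
Tnfrsf1a and Il6ra, which were not called in log2 CPM, were higher on the relative scale, as most genes were. The relative difference was 0.59 for Tnfrsf1a (SE 0.13, adjusted p = 0.000725 by limma) and 0.39 for Il6ra (SE 0.10, adjusted p = 0.00168 by limma). Il1rn (0.21, SE 0.16) and Il1r1 (0.32, SE 0.17) did not pass, the latter with an adjusted p of 0.0829 by limma. Without IMC-treated mouse 3 or 4 Il1r1 passed the same limma test, with relative differences of 0.40 and 0.44 (adjusted p = 0.0411 and 0.0105). In the 9 other fits that left out a mouse Il1r1 did not pass (adjusted p up to 0.191 by limma).

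**Figure D3:**
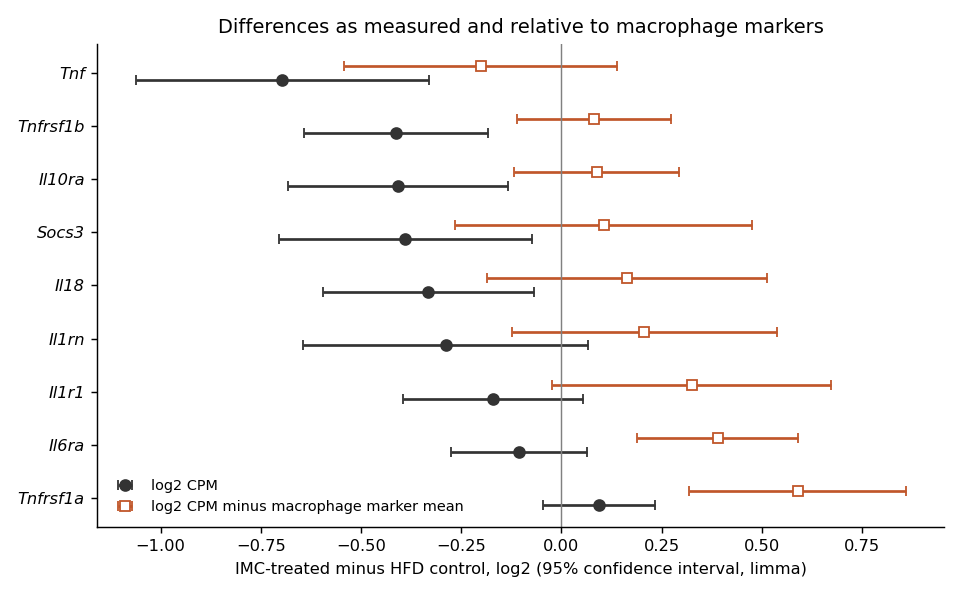
Difference between IMC-treated and HFD control mice for each listed gene on the log2 scale, with 95% confidence intervals from limma, as log2 CPM (black circles) and relative to the mean of 10 macrophage markers (open orange squares). Intervals of the 5 called genes lie below 0 in log2 CPM and include 0 on the relative scale.

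**Figure D4:**
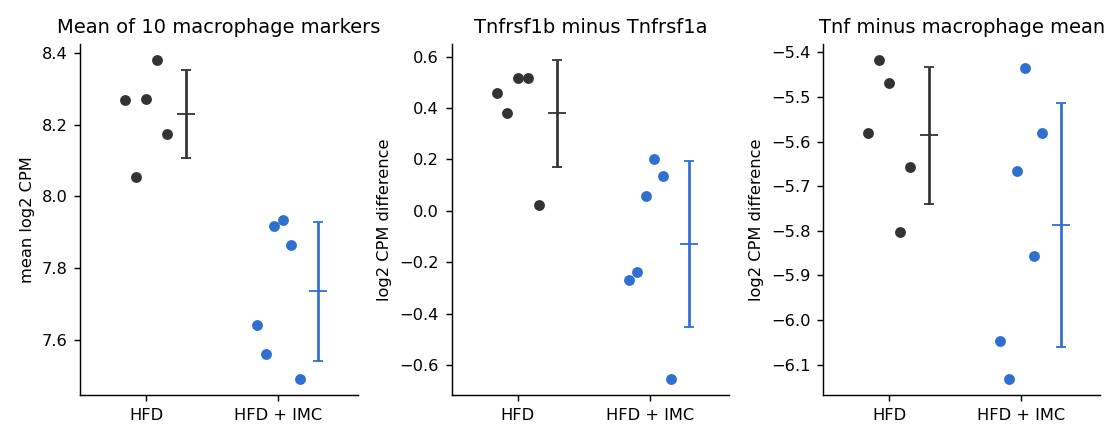
Mean log2 CPM of 10 macrophage markers, log2 ratio of Tnfrsf1b to Tnfrsf1a, and Tnf minus the macrophage mean, one point per mouse with the group mean and SD beside the points. The marker mean does not overlap between the groups, the receptor ratio overlaps through 1 control mouse at 0.02, and the values of Tnf relative to the markers overlap widely.

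Mice of a group differed in the same direction for several of the genes. IMC-treated mouse 4 was the highest of its group for 5 of the 9 genes, Tnf, Tnfrsf1b, Il1rn, Il6ra and Il10ra, and the lowest for Il1r1 and Il18. It also had the highest macrophage marker mean of the treated mice, 7.93. IMC-treated mouse 6 was the lowest of its group for 4 genes, Tnfrsf1b, Il1rn, Il6ra and Il10ra, the highest for Tnfrsf1a and Il1r1, and had the lowest marker mean, 7.49. Among HFD control mice, mouse 5 was the lowest for Tnf, Tnfrsf1b, Il18 and Il10ra, with a marker mean of 8.17, while mouse 2 had the lowest marker mean, 8.05, and was not the lowest for any of the genes.

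Other genes of the same pathways were counted in 10 lists, leaving out the genes above. Of 138 listed genes tested by limma, 49 were lower and 18 higher in treated mice at the threshold of 0.05, with a median difference of -0.14, where 21.0% of all genes were lower and 40.9% differed in either direction. The share called in either direction was below 40.9% for TNF receptors (35.3%) and IL-1 family receptors (16.7%). It was also below that share for the IL-10 family (33.3%) and for JAK, STAT and SOCS genes (34.8%). The share was above 40.9% for TNF ligands (50%), TNF and NF-kB signaling (54.5%), IL-1 processing and signaling (69.2%) and other interleukins (52%). The IL-6 family (60%) and the 2 IL-1 family ligand genes (100%) were also above it, and all lists together had 48.6%. Among the 13 genes for IL-1 processing and signaling, 8 were lower and 1 higher. Pycard, which encodes the inflammasome adaptor ASC, fell by 0.65 on the log2 scale (SE 0.08). Casp1, which encodes the protease that cuts IL-1 beta and IL-18, fell by 0.53 (SE 0.07), and Casp4, which encodes an inflammatory caspase for bacterial lipopolysaccharide, fell by 0.63 (SE 0.09). For each of these, all IMC-treated mice were below all HFD control mice. The inflammasome sensor gene Nlrp3, chosen after its value was seen, changed by -0.56 (SE 0.17), with limma giving an adjusted p of 0.0176.
In the IL-1 family, the 2 other ligand-type genes listed were both lower, the alarmin Il33 with a log2 fold change of -0.68 (SE 0.10) and Il18bp, which encodes a protein that binds and blocks IL-18, with -0.48 (SE 0.15). The call of Il18bp was lost without control mouse 2 or 4 or IMC-treated mouse 5. Of 6 other receptors of this family, 1 was lower, the IL-33 receptor gene Il1rl1 (log2 fold change -0.64, SE 0.15), a gene that mast cells express. Il1r2 (log2 fold change -0.52, adjusted p = 0.0830 by limma, but 0.0352 without IMC-treated mouse 1) and Il18r1 (log2 fold change -0.31, adjusted p = 0.280 by limma) were not called.

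The 6 other TNF superfamily ligands listed included 2 lower and 1 higher gene, and the 17 other TNF receptors 2 lower and 4 higher. Tnfsf12, which encodes TWEAK, fell by 0.65 on the log2 scale (SE 0.09), with no overlap between the groups, and Tnfsf13b, which encodes the B cell factor BAFF, fell by 0.39 (SE 0.13, limma adjusted p = 0.0322). The call of Tnfsf13b was lost in 6 of the 11 fits that each left out a mouse, with a difference of -0.28 without control mouse 4, and the count of lower ligands was then 1. Eda, the ligand of hair and tooth development, was higher by 0.28 (SE 0.10, limma adjusted p = 0.0300). Its call was lost in 6 of the same 11 fits and with total-count scaling (limma adjusted p = 0.0560), which left 0 higher ligands. The receptors with the smallest p were higher, the death receptor genes Fas (log2 fold change 0.43, SE 0.07) and Tnfrsf10b (log2 fold change 0.51, SE 0.12) and the decoy receptor gene Tnfrsf23 (log2 fold change 0.61, SE 0.11). Tnfrsf23 has close paralogs, among them Tnfrsf22 and Tnfrsf26. Reads could have been split among these genes, so the values of each are uncertain. The remaining higher receptor gene was Tnfrsf22 (log2 fold change 0.52, SE 0.15, adjusted p = 0.0154 by limma). The lower receptor genes were Tnfrsf26 (log2 fold change -0.84, SE 0.24, adjusted p = 0.0127 by limma) and Tnfrsf11a (log2 fold change -0.32, SE 0.10, adjusted p = 0.0177 by limma). Of 33 genes for TNF and NF-kB signaling, 13 were lower and 5 higher, with differences between -0.42 and 0.24. The higher count was 3 without control mouse 3, without IMC-treated mouse 2 and with total-count scaling, and the count of lower TNF receptors was 1 without control mouse 3. The adaptors Tradd (log2 fold change -0.37, SE 0.06) and Traf5 (log2 fold change -0.38, SE 0.07) and Rbck1 (log2 fold change -0.20, SE 0.05), which encodes a subunit of the linear ubiquitin ligase, had the smallest p. The NF-kB targets Nfkbia (-0.08, SE 0.09) and Tnfaip3 (-0.02, SE 0.11), chosen after their values were seen, did not pass the test (adjusted p = 0.521 and 0.880 by limma). They do not stand for the whole list. From that list, also chosen after their values were seen, Traf1 (-0.42, SE 0.13) and Birc3 (-0.28, SE 0.08) were called lower. Nfkb1 (-0.24, SE 0.06) and Nfkb2 (-0.18, SE 0.07) were also called lower, and Tnip1 (0.24, SE 0.06) was called higher.

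For the IL-6 family, 4 of 10 other genes were lower and 2 higher, and 2 were lower without control mouse 4 or without IMC-treated mouse 2. Il11ra1, the IL-11 receptor gene, fell by 0.42 (SE 0.07) and the cytokine gene Clcf1 by 0.64 (SE 0.12) on the log2 scale, while the receptor gene Cntfr had a log2 fold change of 0.78 (SE 0.17), each without overlap between the groups. In the IL-10 family, 1 of 3 other genes was lower, Il10rb, and neither Il10 (log2 fold change -0.40, adjusted p = 0.102 by limma, but 0.0269 without control mouse 1) nor Il20rb (log2 fold change 0.46, adjusted p = 0.0972 by limma) was called. The list of other interleukins and receptors had 10 of 25 genes lower and 3 higher. Il3ra, the IL-3 receptor gene, fell by 0.61 (SE 0.09) and Ebi3, which encodes a chain of IL-27, by 0.65 (SE 0.10), whereas Il2ra, the gene for the alpha chain of the IL-2 receptor, had a log2 fold change of 0.91 (SE 0.14). Il2ra rose from 2.25 ± 0.32 in controls (SD, n = 5) to 3.16 ± 0.20 with IMC (SD, n = 6) in log2 CPM without overlap. Of the 6 T cell markers 0 were listed, so T cells were not measured by them, and the cells that express Il2ra were not identified.
Of 23 other genes for JAK, STAT and SOCS proteins, 6 were lower and 2 higher, a share of 34.8% beside 40.9% of all genes. The phosphatase genes of this list moved in opposite directions, Ptpn11 by 0.48 (SE 0.05) and Ptpn6, which is expressed mainly in blood cells, by -0.57 (SE 0.12). Stat5a had a log2 fold change of 0.30 (SE 0.05). Socs1, chosen after its value was seen, changed by -0.85 (SE 0.18) on the log2 scale, with limma giving an adjusted p of 0.00254, and Stat3, chosen in the same way, by 0.04 (SE 0.06), with an adjusted p of 0.564. The level of Socs1 was low, with means of 1.07 log2 CPM in controls and 0.22 with IMC, and its groups overlapped.

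**Figure D5:**
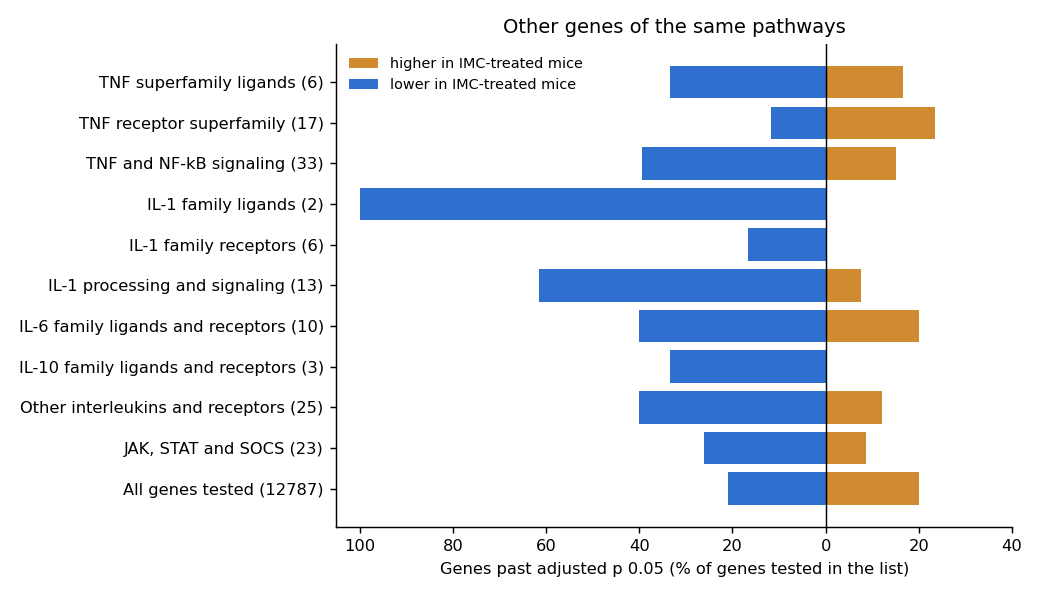
Share of the genes of each list that were lower (blue, to the left) or higher (orange, to the right) with IMC by limma at the threshold of 0.05, with the number of genes tested in parentheses and all genes tested in the bottom row. The share of lower genes is 8 of 13 for IL-1 processing and signaling, beside 21.0% of all genes.

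Genes with the most similar course over the 11 mice were looked up for Tnf, Il1rn and Socs3, the listed genes with the largest SD. Likeness was the root mean square difference of log2 CPM after centring each gene. Closest to Tnf were Havcr2, which encodes the immune checkpoint receptor TIM-3 (difference of 0.12), Psrc1 (0.16) and Rasal3 (0.17), where Tnf itself had an SD of 0.47. For Il1rn, with an SD of 0.34, the closest were the syndecan gene Sdc1 (0.16), C5ar2 (0.18), which encodes a receptor of complement C5a, and Ppfibp2 (0.19). For Socs3, with an SD of 0.33, they were the small GTPase gene Rhob (0.16), Jun, which encodes an AP-1 subunit (0.17), and Rbm12b1 (0.17).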

How the data were processed

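Total RNA of gonadal WAT from 11 mice was sequenced by the authors as directional mRNA libraries, 1 per mouse. Per the labels and the methods of the study, reads were trimmed with Trim Galore, checked with FastQC, aligned with STAR to mm10 and counted per gene. The authors removed transcripts under 1 CPM in all mice and scaled libraries by the upper quartile with edgeR. The authors deposited log2 CPM for 12787 genes. The table also holds the authors' own log2 fold change, likelihood-ratio score, p-value and FDR as deposited, which were not used. One control sample that failed quality control was left out by the authors.

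Groups were taken from the treatment label. The deposited log2 CPM were compared with limma 3.58.1 in R 4.3.3 (lmFit, eBayes with trend, group only), with Benjamini-Hochberg adjustment over all 12787 genes, threshold 0.05 and no further filter. The relative scale used the same fit. For ratios, exact permutation (two-sided, 462 splits) was used, whose smallest p is 0.00433. Each value was a whole number of reads plus an added constant (within 0.05 reads for 100% of values), so reads were recovered for depth and for alternative scalings, and errors from counting cover counting only. Exon lengths, intervals and overlaps came from GENCODE vM21 (GRCm38, the same assembly as mm10), promoters from RefSeq. The main limma fit and the recovery of reads were tested on simulated data, and the permutation test on an example with a known answer. The relative-scale fit and the alternative fits were not tested in this way.

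Named genes were the group itself, for each pathway list the 3 smallest p-values, the 3 genes most like each of the 3 most variable listed genes, and cell type markers. The genes, lists and tests were chosen with earlier results of these data known. Alternatives were a left-out mouse, log2 of CPM plus 2, genes at 1 CPM in every mouse, no variance trend, limma voom, and median-of-ratios or total-count scaling, and a macrophage mean over Adgre1, Cd68 and Csf1r alone. Il1b was not analysed here, and the ratio of Il1rn to Il1b was not calculated. P-values measure the spread between mice, and cages are not given in the labels.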

Additional observations from a re-analysis of the deposited data

Results flagged for a closer look

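Over the listed genes and ratios, 26 groups of values were examined for a mouse far from the others of its group, and 2 were found, where chance flags about 1 in 20 groups. Socs3 in HFD control mouse 1 had 5.08 log2 CPM, while the other controls lay between 4.27 and 4.48. The log2 ratio of Tnfrsf1b to Tnfrsf1a in HFD control mouse 5 was 0.022, while the other controls lay between 0.38 and 0.52.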

How the results depend on the processing

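Log2 fold changes of the 9 genes kept their direction under all 17 alternatives. Tnf and Tnfrsf1b kept their limma calls in all of them, Tnf with differences from -0.81 to -0.59 over the left-out mice. The count of lower genes ranged from 2 to 5 with a mouse left out, and was 2 without control mouse 4 and 3 without control mouse 1 or 2 or IMC-treated mouse 3, 5 or 6. Fits with a mouse less have fewer samples. Over the same fits the difference was -0.48 to -0.32 for Il10ra, -0.41 to -0.27 for Il18, -0.47 to -0.25 for Socs3 and -0.43 to -0.21 for Il1rn. Socs3 lost its call without the variance trend (-0.39, adjusted p = 0.0622 by limma) and with median-of-ratios scaling (-0.38, adjusted p = 0.0515 by limma), and the cause was not tested. With log2 of CPM plus 2, the value of Tnf relative to macrophage markers reversed, to 0.00083 from -0.20 (adjusted p = 0.995 by limma). Tnf, the gene of the group with the fewest reads, had a log2 fold change of -0.48 in this setting against -0.70. The cause of the reversal was not tested. Left-out mice gave 0.22 to 0.44 for Il1r1 relative to macrophage markers, -0.60 to -0.40 for the ratio of Tnfrsf1b to Tnfrsf1a, -0.24 to -0.13 for Il6ra to Il6st, -0.45 to -0.13 for Il1r2 to Il1r1 and -0.070 to 0.12 for Il10ra to Il10rb. Of the 29 pathway genes named by rule, 24 kept direction and call under every alternative. The call of Tnfsf13b was lost without control mouse 3 or 4 or IMC-treated mouse 1, 2, 4 or 6, that of Eda without control mouse 1 or 3 or IMC-treated mouse 1, 2, 3 or 6 and with total-count scaling, and that of Il18bp without control mouse 2 or 4 or IMC-treated mouse 5. Il1r2 was called only without IMC-treated mouse 1 and Il10 only without control mouse 1. Total-count scaling moved the median difference of all genes from -0.03 to -0.06. No paired analysis was possible because no label pairs mice of the groups, and the mouse numbers were given in accession order.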
